A study of Mus musculus with 3 samples.

Results

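Matricellular proteins are secreted into the extracellular matrix (ECM), where they bind receptors, growth factors, and structural proteins instead of bearing load themselves. Many of them are scarce in resting adult tissue and become abundant during repair and fibrosis. In skeletal muscle they are known from regeneration after injury and from dystrophic muscle, and much of their message comes from fibroblasts and from satellite cells rather than from myofibers. The 8 genes described here encode the thrombospondins *Thbs1*, *Thbs2*, and *Thbs3*, osteopontin (*Spp1*), the collagen-binding glycoprotein *Sparc*, tenascin C (*Tnc*), periostin (*Postn*), and connective tissue growth factor (*Ctgf*, now named *Ccn2*). They were taken by name from a list of 84 ECM genes with mm9 positions and strands. The rule itself uses no measured value, although earlier results of these data were known when the genes were chosen.

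Acetylation of histone H3 at lysine 27 (H3K27ac) marks promoters and enhancers in use. It was measured by ChIP-seq in tibialis anterior (TA) muscle of C57/BL6 mice housed to 2, 10, or 20 months, with 1 library per age and no other treatment or genotype. The ages are those of the labels, and the methods give a range that starts at 10 months for the middle one. The tissue label reads TA muscle, while the extraction text of the same labels speaks of activated SCs, and the number of animals behind a library is not given in the sources used here. No mm9 positions of muscle marker genes were at hand, so the tissue was not checked against its markers. With 1 library per age, a difference between ages has no replicate check and was not tested. Intervals of ratios cover the counting error of reads only. Intervals of shares treat genes as independent draws, which genes chosen by name are not, and they cover no difference between animals.

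The peak lists differed in length and in depth. They held 17884, 35221, and 44752 peaks at 2, 10, and 20 months, and the libraries had 15.9, 18.9, and 26.3 M reads in the same order. These depths were derived from the lowest background in each list. Reads at a peak's summit were recovered from the deposited ratio and p-value, and they are given as a level, meaning summit reads over the coverage that the genome had on average (1.26, 2.24, and 2.5 reads at the 3 ages). The lowest level among the peaks of a list was 6.34, 4.46, and 3.99 at 2, 10, and 20 months. RPM is summit reads scaled to the total reads of the library, a measure that depends on fragment length as well. In RPM the lowest peak was 0.502, 0.529, and 0.380 at the same ages. The 20-month list thus reached the weakest peaks on both scales, while the order of the 2-month and 10-month lists depends on the scale. The share of peaks whose background equalled the genome mean was 78.3%, 2.87%, and 4.89% at the 3 ages, and the part of this difference in the peak counts was not tested.

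Each peak was assigned to the nearest transcription start site (TSS) of the 84 genes when its edge lay within 100 kb. Peaks within 2.5 kb of the TSS are promoter peaks, and those beyond are distal peaks. Coordinates of peaks and regions are on mm9. In bulk muscle, a change in the number of cells that carry the mark and a change in the mark per cell cannot be told apart. The 8 genes differed sharply in how much H3K27ac lay around them. *Thbs3* and *Sparc* were surrounded by peaks at every age, *Spp1* had most of its peaks at the later ages, *Thbs2*, *Thbs1*, and *Postn* had peaks at 10 or 20 months alone, *Ctgf* was marked mainly at its promoter, and *Tnc* had no peak at any age.

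**Figure D1:**
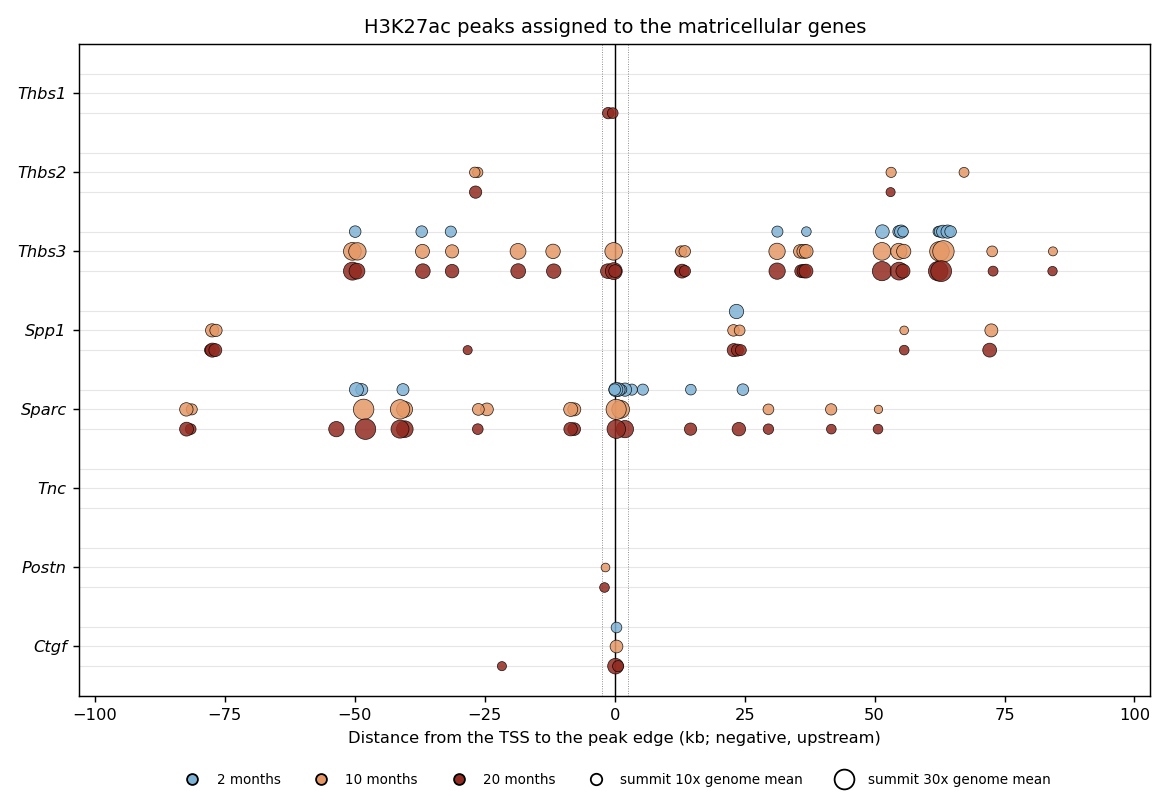
Positions of the peaks assigned to each gene, as the distance in kb from the TSS to the peak edge, with a row per age (2, 10, and 20 months from top to bottom) and the area of a point proportional to the summit level in multiples of the genome mean; dotted lines mark 2.5 kb. *Thbs3*, *Sparc*, and *Spp1* hold peaks far on both sides of the TSS, and the row of *Tnc* is empty.

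The promoter sequences of the 3 genes below are shown because their promoter peaks differed between the ages, as described below, and because they carry different short elements near their starts. They are RefSeq windows from 250 bp before to 50 bp after a start, on GRCm38.p6, a later build than the mm9 of the peaks, so no position was carried from one to the other. Windows were found for 6 of the 8 genes, and there was none for *Thbs1* and *Ctgf*. The TATA box, the GC box, the E-box of myogenic factors, and the sites of AP-1 and TEAD factors were searched as exact letters on both strands, spelled out with each result, and capitals mark a match. *Sparc* lies at chr11:55420031-55420330 on the minus strand, *Thbs3* at chr3:89214930-89215229 on the plus strand, and *Postn* has 2 annotated starts on the plus strand, at chr3:54359017-54359316 (upstream) and chr3:54360857-54361156 (downstream).
Sparc: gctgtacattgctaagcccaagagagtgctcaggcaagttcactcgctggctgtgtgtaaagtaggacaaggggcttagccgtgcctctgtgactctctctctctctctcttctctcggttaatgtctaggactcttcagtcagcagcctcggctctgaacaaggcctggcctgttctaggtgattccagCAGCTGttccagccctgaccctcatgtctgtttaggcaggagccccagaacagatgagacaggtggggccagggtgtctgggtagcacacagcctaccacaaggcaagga
Thbs3: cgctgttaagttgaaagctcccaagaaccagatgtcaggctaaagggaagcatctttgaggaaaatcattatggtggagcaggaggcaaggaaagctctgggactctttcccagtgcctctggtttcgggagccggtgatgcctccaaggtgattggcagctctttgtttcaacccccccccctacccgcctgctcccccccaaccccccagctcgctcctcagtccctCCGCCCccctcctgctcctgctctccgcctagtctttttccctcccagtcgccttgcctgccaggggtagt
Postn, upstream start: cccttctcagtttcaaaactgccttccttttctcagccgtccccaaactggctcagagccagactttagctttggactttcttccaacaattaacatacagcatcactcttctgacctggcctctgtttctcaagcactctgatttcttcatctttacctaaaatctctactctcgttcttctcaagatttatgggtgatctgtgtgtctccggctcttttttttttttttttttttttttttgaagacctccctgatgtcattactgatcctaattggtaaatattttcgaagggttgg
Postn, downstream start: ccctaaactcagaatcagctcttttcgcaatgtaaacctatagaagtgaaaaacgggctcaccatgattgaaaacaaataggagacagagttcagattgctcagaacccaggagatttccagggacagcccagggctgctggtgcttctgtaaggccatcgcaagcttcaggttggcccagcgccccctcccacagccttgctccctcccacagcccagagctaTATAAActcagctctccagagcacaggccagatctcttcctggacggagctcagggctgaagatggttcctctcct

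The *Sparc* window held the E-box CAGCTG 60 bp upstream of the start, a motif found in 16.3% of the 32851 windows of the table. *Thbs3* held the GC box GGGCGG, read here from the other strand, 21 bp upstream of the start, as did 35.7% of all windows somewhere along their length. Both *Tnc* windows held the GC box as well, 246 and 167 bp upstream of the starts. The downstream start of *Postn* had a TATA box, TATAAA, 26 bp before it, the usual place of that element, while the upstream start had none of the 5 motifs. A TATA box was present in 13.6% of all windows. It also occurred in the windows of *Thbs2* (126 bp upstream, on the other strand), the upstream start of *Spp1* (211 bp), and *Tnc* (126 bp or 205 bp from its 2 starts), farther from the start than in *Postn*. The AP-1 motif TGANTCA, present in 7.81% of all windows, was in none of the members' windows. The TEAD motif GGAATG, present in 14.7% of all windows, was in none of them either. CpG sites numbered 8 in the *Thbs3* window and 4 in that of *Sparc*, against a median of 7 over the table. The 2 *Tnc* windows had 16 and 10, above that median, although *Tnc* carried no peak.

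The count of distal peaks around the 8 genes was 22, 41, and 46 at 2, 10, and 20 months. *Thbs3* and *Sparc* together held 21, 31, and 34 of them. At least 1 distal peak was found at 3 of the 8 members at 2 months (37.5%, exact Clopper-Pearson 95% interval 8.52 to 75.5%). It was 4 members at 10 months (50%, 15.7 to 84.3%), and 5 members at 20 months (62.5%, 24.5 to 91.5%). Over all 84 genes the share was 48.8%, 67.9%, and 75% at the 3 ages, so the members' shares lay below it at each age with intervals that include it. Peaks per gene were 2.75, 5.13, and 5.75 for the 8 members and 2.26, 4.04, and 5.42 for the other 76 genes. Without *Thbs3*, 8, 22, and 26 distal peaks were left for 7 genes, or 1.14, 3.14, and 3.71 per gene, which is below the other 76 genes at each age. The members' 22, 41, and 46 peaks made up 11.3%, 11.8%, and 10.0% of the distal peaks of the 84 genes, so the members gained distal peaks in about the same measure as the whole list. When each list was reduced to the 17884 peaks with the smallest q, the members' counts were 22, 18, and 19 and the members with a distal peak 3, 3, and 3, and neither increased with age.

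Distal peaks were more numerous at 20 than at 2 months for 5 members (*Thbs2*, *Thbs3*, *Spp1*, *Sparc*, and *Ctgf*), equal for the other 3, and fewer for none, against 67.9% of the 84 genes with more. *Thbs2* alone went without a distal peak at 2 months and had at least 1 at both later ages, as did 17.9% of the 84 genes. None of its distal peaks was kept in the reduced lists. The numbers per age are in the plot of peaks per gene.

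**Figure D2:**
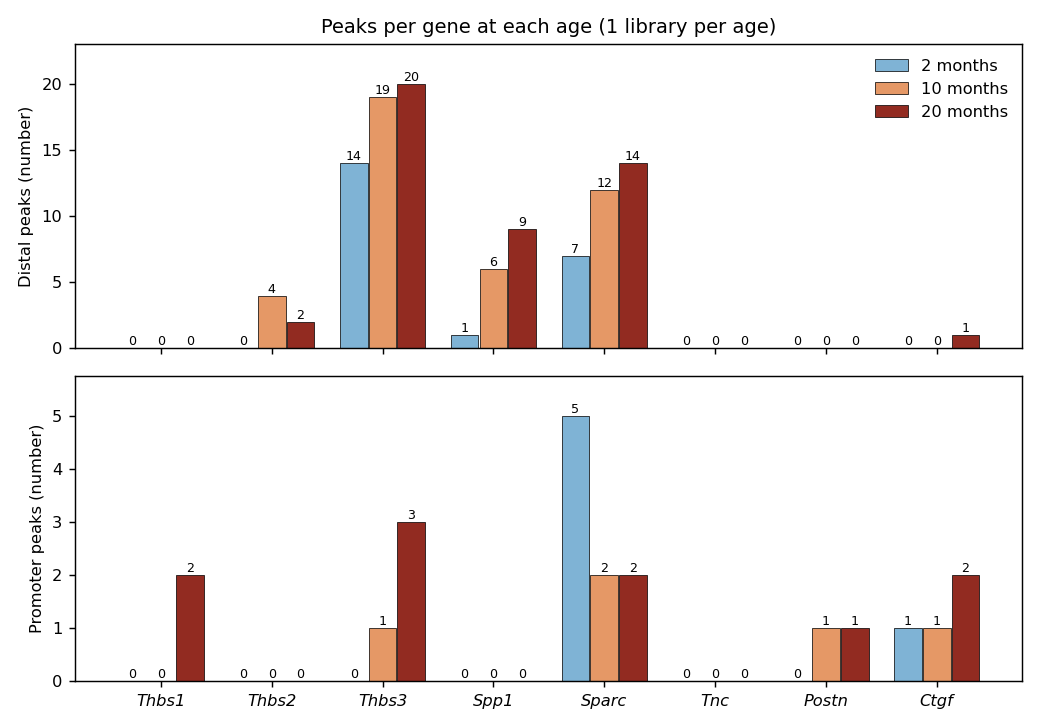
Number of distal (upper panel) and promoter peaks (lower panel) of each gene at 2, 10, and 20 months, with 1 library per age and hence no error bars. *Thbs3* has 14, 19, and 20 distal peaks and *Sparc* 7, 12, and 14, while *Sparc* has 5 promoter peaks at 2 months and 2 at each later age.

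Promoter peaks were present at 2 of the 8 genes in the 2-month library (25%, 3.19 to 65.1%), at 4 in the 10-month library (50%, 15.7 to 84.3%), and at 5 in the 20-month library (62.5%, 24.5 to 91.5%). The share over the 84 genes was 26.2%, 34.5%, and 50%, which lies inside the members' interval at each age. *Sparc* and *Ctgf* had one at every age, *Thbs3* and *Postn* at 10 and 20 months, and *Thbs1* at 20 months. *Thbs2*, *Spp1*, and *Tnc* had none. The promoter peaks of *Thbs1* and *Postn*, and that of *Ctgf* at 10 months, were not kept in the reduced lists, which left 2, 2, and 3 genes with a promoter peak.

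Peaks of the 3 lists that touch were joined into regions, and the 8 genes had 60 regions, of which 51 were distal and 9 at promoters. A peak was present at all 3 ages in 13 regions (21.7%), at 10 and 20 months but not at 2 months in 28 (46.7%), at 20 months alone in 7 (11.7%), at 2 months alone in 6, and at 2 and 20 months or at 10 months alone in 3 each. Regions with peaks at both later ages made up 31.4% of the 599 regions of the 84 genes and 33.8% of all regions of the genome, below the 46.7% of the members. Regions with a peak at 20 months alone made up 24.7% and 24.6% of them, above the 11.7% of the members. Without *Thbs3* the members' shares were 46.2% and 15.4%. Regions of a gene share a locus and are not independent, and these shares were not tested.

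The 13 regions with a peak at all ages belonged to *Thbs3* (9), *Sparc* (3), and *Ctgf* (1). Their median level was 10.3, 20.1, and 20.4 at 2, 10, and 20 months. The median ratio of levels was 1.79 for 10 over 2 months (range 1.41 to 2.89) and 1.91 for 20 over 2 months (range 1.47 to 2.91). All 13 regions were higher at 10 than at 2 months, as were 93.5% of the 10598 such regions of the genome, and all 13 were higher at 20 than at 2 months, as were 95.8%. The exact 95% interval of the ratio lay above 1 in 5 regions for 10 over 2 months and in 8 regions for 20 over 2 months, against 58.1% and 65.8% of regions over the genome. The genome's median ratios were 1.95 and 2.08, slightly above those of the members, and the difference was not tested. Between the later ages the levels were close, with a median ratio of 1.04 for 20 over 10 months (range 0.827 to 1.50). 8 of 13 regions were higher at 20 than at 10 months, against 63% over the genome, and no interval excluded 1. In RPM that ratio had a median of 0.830 and 1 of 13 regions was higher at 20 months, so the direction between 10 and 20 months depends on the scale.

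**Figure D3:**
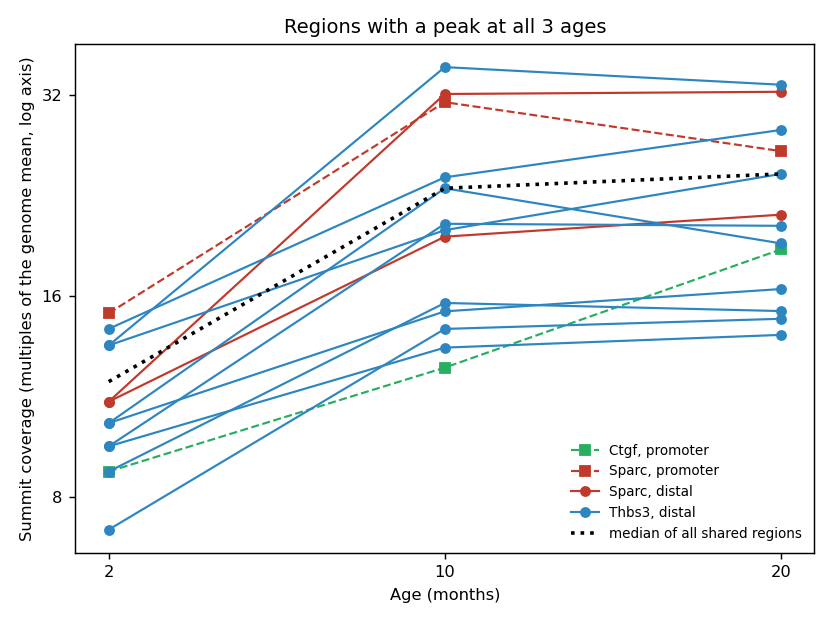
Summit level of the 13 regions with a peak at all ages, in multiples of the genome mean on a log axis, with a line per region (circles, distal; squares, promoter) and the median of all such regions of the genome as a dotted line. Every line is lowest at 2 months, and the members' median is 10.3 there, against 20.1 and 20.4 at 10 and 20 months.

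**Figure D4:**
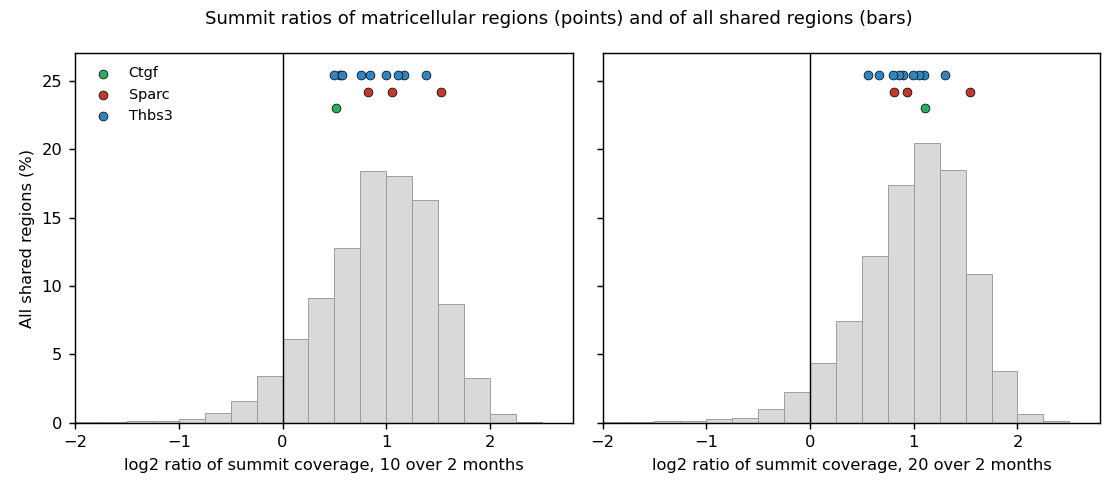
Log2 ratio of levels for 10 over 2 months (left) and 20 over 2 months (right), with the percentage of all shared regions per bin as bars and the 13 member regions as points, set above the bars in a row per gene. All points lie to the right of 0 and within the bulk of the bars.

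Among the thrombospondins, calcium-binding glycoproteins that assemble as trimers or pentamers, the pentameric *Thbs3* had the most H3K27ac around it. It had 14, 19, and 20 distal peaks at 2, 10, and 20 months, and its ranks among the 84 genes were 3, 2, and 3. At 20 months 6 of its 20 distal peaks lay upstream and 14 downstream of the gene. Its surroundings are crowded with other genes. RefSeq on GRCm38.p6 has 11 other coding gene starts within 100 kb of that of *Thbs3*, among them *Mtx1*, which faces it on the other side of a shared promoter region, *Clk2*, and *Pklr* upstream and *Muc1*, *Trim46*, and *Efna1* downstream. *Sparc* has 2 such neighbours (*Atox1* and *G3bp1*), *Spp1* has 1 (*Pkd2*), and the other 5 members have none. The 3 genes with such neighbours are also the 3 with the most distal peaks, and whether their distal peaks lie at promoters of those neighbours was not tested.

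The *Thbs3* promoter carried no peak at 2 months. A region just upstream of the TSS (chr3:89017451-89018925, mm9) had 53 summit reads at 10 months and 55 at 20 months, or levels of 23.6 and 22.0, several times the lowest level listed at 2 months. The 20-over-10-month ratio was 0.929 (0.626 to 1.38), an interval that includes 1. This region lies on the side of *Mtx1*, and whether its acetylation belongs to *Mtx1* or to *Thbs3* was not tested. A separate peak 0.084 kb inside the gene (chr3:89019193-89019370) was listed at 20 months alone, with 32 reads and a level of 12.8. The strongest distal region of *Thbs3* with a peak at all ages lay 62.2 kb downstream of the TSS (chr3:89081327-89083506), far beyond the 3′ end of the gene. It had 17, 79, and 83 reads at 2, 10, and 20 months, which are levels of 13.5, 35.2, and 33.2. The ratio was 2.61 (1.53 to 4.71) for 10 over 2 months and 2.46 (1.45 to 4.42) for 20 over 2 months. The weakest of the 9 shared *Thbs3* regions at 2 months, 36.8 kb downstream (chr3:89055906-89056339), had 9, 32, and 37 reads at the 3 ages, or levels of 7.14, 14.3, and 14.8. Over the 9 regions together, the reads gave a ratio of 1.88 (1.53 to 2.32) for 10 over 2 months and 1.92 (1.57 to 2.36) for 20 over 2 months. The 9 regions share a locus and are not independent, so these intervals measure no spread between regions or animals. A further 10 regions of *Thbs3* had peaks at 10 and 20 months but not at 2 months, with levels between 6.24 and 24.1 at 10 months and between 6.79 and 24.8 at 20 months. The highest of these at 20 months, 50.5 kb upstream (chr3:88968071-88968642), had 54 reads at 10 months and 62 at 20 months. When peaks within 1 kb were joined, it merged with a neighbouring region that had a 2-month peak. The joined region (chr3:88968071-88969592) had 13, 54, and 62 reads at 2, 10, and 20 months.

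*Thbs2*, a trimeric thrombospondin that limits angiogenesis and shapes collagen fibrils, had no peak within 100 kb at 2 months, when the nearest peak lay 249 kb away. It had 4 distal peaks at 10 months and 2 at 20 months and no promoter peak. The strongest lay 26.8 kb upstream (chr17:14858041-14858422), with 19 reads at 10 months and 29 at 20 months, or levels of 8.47 and 11.6, and a 20-over-10-month ratio of 1.37 (0.741 to 2.58). Another, 53.1 kb downstream of the TSS (chr17:14777574-14778192), had 18 and 16 reads, or levels of 8.03 and 6.39. The other 2 were listed at 10 months alone, 26.4 kb upstream (chr17:14857625-14857986, 18 reads, level 8.03) and 67.2 kb downstream (chr17:14763824-14764062, 17 reads, level 7.58). Joining peaks within 1 kb left 3 *Thbs2* regions, as the one 26.4 kb upstream merged with the strongest. All of the *Thbs2* levels above are below the median of their lists (15.6 at 10 months and 14.0 at 20 months).

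*Thbs1*, an activator of latent TGF-β, was without a peak at 2 and 10 months, when the nearest peaks lay 367 and 277 kb from its TSS. At 20 months 2 promoter peaks were listed, 1.26 kb upstream (chr2:117936139-117936356, 25 reads) and 0.386 kb upstream (chr2:117937049-117937226, 22 reads). Their levels were 9.99 and 8.79, above the lowest levels listed at 2 and 10 months. No distal peak was found at any age.

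*Spp1* encodes osteopontin, a cytokine-like ligand of integrins and CD44 that macrophages and other cells make in injured muscle. It had 1, 6, and 9 distal peaks at 2, 10, and 20 months, and no promoter peak at any age. Its gain of distal peaks between 2 and 20 months had rank 8 of 84. The peaks fell into a few clusters on both sides of the gene, with 4 upstream and 5 downstream at 20 months. The peak of 2 months lay 23.4 kb downstream of the TSS (chr5:104888632-104889117) with 20 reads and a level of 15.9. Of the later libraries, that of 20 months had a peak in the same place, with 28 reads and a level of 11.2, and a ratio to 2 months of 0.705 (0.383 to 1.32). At 10 months the peaks lay on either side of it instead, at chr5:104888061-104888495 with 23 reads (level 10.3) and at chr5:104889241-104889731 with 20 reads (level 8.92). The same flanking regions had 33 reads (level 13.2) and 23 reads (level 9.19) at 20 months. When peaks within 1 kb were joined, this cluster became a single region, chr5:104888061-104889731, with highest summits of 20, 23, and 33 reads at the 3 ages. Its levels were then 15.9, 10.3, and 13.2, the ratio was 0.647 (0.340 to 1.24) for 10 over 2 months and 0.831 (0.463 to 1.53) for 20 over 2 months, and in RPM the summits were 1.26, 1.22, and 1.25. The cluster that *Spp1* had at 2 months was therefore not higher at the later ages on either scale, and its intervals include 1. Each of the 13 regions above was higher at both later ages. The interval of their ratio lay above 1 in 5 of them for 10 over 2 months and in 8 for 20 over 2 months. Whether the *Spp1* cluster differs from them was not tested. The downstream neighbour *Pkd2* has its start within 100 kb of that of *Spp1* on GRCm38.p6. Whether the cluster lies at the *Pkd2* promoter was not tested.

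The other regions of *Spp1* were listed at the later ages. A pair 77.4 and 76.7 kb upstream, on the side of *Mepe*, had 30 and 38 reads at 10 and 20 months (chr5:104787026-104787780, levels 13.4 and 15.2) and 26 and 32 reads (chr5:104787939-104788487, levels 11.6 and 12.8). A region 72.1 kb downstream (chr5:104937354-104938240) had 29 and 37 reads, or levels of 12.9 and 14.8. A weaker one 55.7 kb downstream (chr5:104920902-104921202) had 13 and 18 reads, or levels of 5.80 and 7.19. All 6 *Spp1* regions with peaks at both later ages but not at 2 months had a higher level at 20 than at 10 months. Their median ratio was 1.14, and each of the 6 intervals included 1. Of all regions of this kind, 13 of 28 at the members and 7829 of 17830 over the genome had a higher level at 20 months. In RPM 1 of the 6 was higher at 20 months, as were 4 of the 28 and 2168 of the 17830. A single weak peak 28.3 kb upstream (chr5:104836710-104836909, 16 reads, level 6.39) was listed at 20 months alone.

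*Sparc*, which binds collagen and calcium and takes part in collagen fibril assembly, had 7, 12, and 14 distal peaks at 2, 10, and 20 months, with ranks of 9, 6, and 9 among the 84 genes. It was the one member with fewer promoter peaks at the later ages, with 5 at 2 months and 2 at each later age. The merged lists placed these peaks in neighbouring regions, and the summit of the main one was lowest at 2 months. That region (chr11:55231990-55233376) had 19, 70, and 66 reads at 2, 10, and 20 months, or levels of 15.1, 31.2, and 26.4. The ratio was 2.07 (1.23 to 3.64) for 10 over 2 months and 1.75 (1.04 to 3.09) for 20 over 2 months. A region over the TSS itself (chr11:55233489-55233851) had a peak of 13 reads (level 10.3) at 2 months alone. The nearest later peak was 181 bp away from it. Inside the gene, 1.96 kb from the TSS (chr11:55231205-55231621), there were 17 reads at 2 months and 57 at 20 months, or levels of 13.5 and 22.8, with a ratio of 1.69 (0.968 to 3.10).

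Upstream of *Sparc*, within 100 kb on GRCm38.p6, lie the starts of *Atox1* and *G3bp1*. Whether the upstream regions given here lie at promoters of those genes was not tested. The strongest distal region of *Sparc* lay 48.0 kb upstream (chr11:55281551-55282707), with 14, 72, and 81 reads at 2, 10, and 20 months. The levels were 11.1, 32.1, and 32.4. The ratios of 2.89 (1.62 to 5.55) for 10 over 2 months and 2.91 (1.64 to 5.57) for 20 over 2 months were the highest of the 13 shared regions. A region 40.4 kb upstream (chr11:55273974-55274665) had 14, 44, and 53 reads, or levels of 11.1, 19.6, and 21.2. Next to it, at chr11:55274886-55275447, a peak was listed at 10 months with 65 reads (level 29.0) and at 20 months with 62 reads (level 24.8). None was listed there at 2 months. Joining peaks within 1 kb put both into the same region (chr11:55273974-55275447), which had a 2-month peak. The level of 29.0 was the highest at 10 months among the members' 28 regions with peaks at both later ages alone. The other regions of this kind at *Sparc*, 8 in all, had levels between 5.35 and 15.2 at 10 months and between 7.19 and 14.8 at 20 months. 5 of the 6 member regions with a peak at 2 months alone also belonged to *Sparc*, with levels between 9.52 and 15.1, and the remaining one lay at *Thbs3* (level 10.3). The nearest peaks of the later lists were between 181 and 3265 bp away from these 6 regions. The *Sparc* regions farthest from one lay 1135 and 3265 bp away. Joining peaks of any age within 1 kb still put the one at 1135 bp into the promoter region (chr11:55229972-55233851), through a 2-month peak between them. Distances to later peaks were not examined for other regions of the genome.

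*Postn*, a fasciclin-domain protein that binds collagen and integrins and that activated fibroblasts make, had no peak at 2 months, when the nearest lay 332 kb away. A weak promoter region (chr3:54162700-54163088) had 13 reads at 10 months and 18 at 20 months. Its levels were 5.80 and 7.19, and the level at 10 months is below the lowest one listed at 2 months (6.34), while in RPM the summits were 0.684 at 20 months and 0.688 at 10 months, both above the lowest RPM listed at 2 months (0.502). Whether a peak of the 10-month size could have been listed at 2 months therefore depends on the scale. The 20-month summit lay above the lowest one listed at 2 months on both scales. The ratio of levels for 20 over 10 months was 1.24 (0.574 to 2.75). The peaks lay 1.94 and 2.09 kb upstream of the TSS used for the assignment. RefSeq has 2 starts of *Postn* 1840 bp apart, and the span of *Postn* on mm9 is shorter than that of RefSeq by the same 1840 bp. By its length the TSS used thus corresponds to the downstream start with the TATA box. By the same length the peaks lay nearer to the upstream start, whose window held none of the 5 motifs. For *Spp1*, whose starts are 1081 bp apart and whose mm9 span is shorter by 1081 bp, the TSS used corresponds by length to the downstream start too, whose window held none of the 5 motifs.

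*Ctgf*, a matrix-bound growth factor that acts downstream of TGF-β and of mechanical tension, had its peaks at the promoter. The promoter region (chr10:24315394-24316304) had 11, 28, and 47 reads at 2, 10, and 20 months, or levels of 8.72, 12.5, and 18.8. The ratio was 1.43 (0.691 to 3.19) for 10 over 2 months and 2.15 (1.10 to 4.60) for 20 over 2 months. *Ctgf* had the highest ratio of 20 over 10 months among the 13 shared regions, 1.50 (0.922 to 2.49), and it was the 1 region that was higher at 20 months in RPM too (1.79 at 20 months and 1.48 at 10 months). A single distal peak 21.7 kb upstream (chr10:24293358-24293541) with 16 reads and a level of 6.39 was listed at 20 months alone.

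*Tnc*, a hexameric glycoprotein of developing and injured tissue, was the one member without a peak within 100 kb at any age, as were 13 of the 84 genes. The nearest peak lay 445 kb from its TSS in each library, with levels of 17.4, 14.3, and 16.8 at the 3 ages. Few peaks were listed in its wider surroundings, with 6, 11, and 15 within 1 Mb of the TSS. Within the same distance there were 74, 92, and 118 peaks around *Thbs3*, 27, 46, and 64 around *Sparc*, and 9, 16, and 29 around *Postn*. A region without a peak may still carry acetylation below the threshold of its list.

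Other genes of the same list encode the receptors and the matrix partners of these proteins. The 7 receptors (the integrin chains *Itgav*, *Itgb3*, *Itgb1*, *Itga4*, *Itga5*, and *Itga3*, and *Cd44*) had 9, 25, and 30 distal peaks at 2, 10, and 20 months. 6 of the 7 had at least 1 at every age (85.7%, 42.1 to 99.6%). Of the 8 ligands 3, 4, and 5 had one (37.5%, 50%, and 62.5%), and of the 84 genes 48.8%, 67.9%, and 75%. The intervals of receptors and ligands overlap at each age, and the difference was not tested. *Itga5*, a chain of the fibronectin receptor, had 1, 8, and 8 distal peaks, and *Itga4* was the receptor without any. Promoter peaks were present at 4, 6, and 6 receptors (57.1%, 85.7%, and 85.7%), beside 26.2%, 34.5%, and 50% of the 84 genes. The receptors' interval was 18.4 to 90.1% at 2 months and 42.1 to 99.6% at both later ages. The 5 relatives and partners (*Tgfbi*, a relative of *Postn*, *Spock1*, a relative of *Sparc*, fibronectin *Fn1*, vitronectin *Vtn*, and the collagen gene *Col1a1*) had 13, 17, and 31 distal peaks, at 3, 4, and 5 of the genes. The shares of these 5 genes, 60%, 80%, and 100%, have intervals that include those of the 84 genes at each age. *Tgfbi* had 2, 3, and 8 distal peaks and *Postn* none, so the fasciclin-domain relatives differed in this list.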

How the data were processed

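H3K27ac ChIP-seq was done on TA muscle of C57/BL6 mice at 2, 10, and 20 months, with 1 library per age. The submitters' processing notes name Bowtie2, MACS2 2.1.0, and mm9. The Bowtie2 version is not given in the sources used here, nor is any control library. The authors called peaks per library and deposited, for each peak, a score, a ratio (fold) of summit coverage to background, and both p and q as −log10. The fold and −log10 p that the authors deposited were solved together for whole summit reads and background (tolerance 0.001), which succeeded for 17884 of 17884, 35220 of 35221, and 44751 of 44752 peaks. The score was not used.

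Level is summit reads over the genome mean, taken from the lowest background of the list, with fragment lengths of 148, 222, and 178 bp (the smallest peak widths). Reads per library follow from that mean and the MACS2 mouse genome size. Shares have Clopper-Pearson and ratios exact conditional binomial 95% intervals. No test of age was made.

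Gene positions are the study's for 84 ECM genes. Members, gene lists, and measures were chosen with earlier results of these data known. Named genes are the 8 members, 7 receptors, and 5 relatives or partners. Named regions are promoter regions, the strongest distal region among those shared by all ages, and every region at one age or at both later ages alone where a gene has at most 5 regions. Further regions were named after their values were seen. Alternatives were other distance limits, counting a peak for every gene, stricter or equal-length lists by q, merging within 1 kb, a minimum level of 10, and RPM. Leaving out *Thbs3* was added after seeing the data. Values came from Python 3.11.15 with scipy 1.17.1, pandas 2.3.3, and numpy 2.4.6, and plots from matplotlib 3.10.9, and the recovery was tested on simulated data.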

Additional observations from a re-analysis of the deposited data

How the results depend on the processing

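Of the values recomputed under alternatives, 55 stayed within their limits, 22 moved, and 1 changed direction. The 22, 41, and 46 distal peaks at 2, 10, and 20 months became 13, 24, and 28 with an outer limit of 50 kb, 7, 18, and 24 in the better 50% of each list by q, and 8, 22, and 26 without *Thbs3*. Each of these kept the order of the ages. In lists of equal length (17884 peaks by q) the counts were 22, 18, and 19, so the order was lost, and the 84 genes had 194, 181, and 193. The q of a peak rests on backgrounds that differed across lists, and the cause of this change was not tested. The 2-month count was 14 when peaks closer than 1 kb were merged and 13 at a minimum level of 10. Lists of equal length left 3 genes with distal peaks at each age, so the increase in genes was lost. Genes with a promoter peak, 2, 4, and 5 at the 3 ages, numbered 1, 2, and 3 under the stricter threshold. In lists of equal length they were 2 at 10 months and 3 at 20 months, and with a minimum level of 10 they were 1 at 2 months and 3 at 20 months. The promoter peaks of *Thbs1* and *Postn* were absent under all 3 of these settings. That of *Ctgf* was absent at 2 and 10 months under the stricter threshold, at 10 months in lists of equal length, and at 2 months with a minimum level of 10. Also absent were all distal peaks of *Thbs2* in lists of equal length. Under the stricter threshold and with a minimum level of 10 it kept 1, at 20 months, and none at 10 months. In RPM the median ratio of the 13 shared regions was 2.68 for 10 over 2 months and 0.830 for 20 over 10 months, the value that reversed. No paired analysis was possible because each age has 1 library. For the same reason no library could be left out. The lowest peak listed was highest at 2 months as a level (6.34) and at 10 months in RPM (0.529).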
